A study of Mus musculus with 27 samples.

Results

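Usf1, Usf2, Cebpa, Foxa2 and Foxa3 encode transcription factors of the liver. They were read here as 6 probe sets on a mouse expression array. The 5 genes are among 8252 that the array annotation names with a single symbol. Usf1 had 2 probe sets (93655_at and 93656_g_at), and Usf2 (103013_at), Cebpa (98447_at), Foxa2 (93950_at) and Foxa3 (98324_at) had 1 each. The genes were chosen by measured values: an earlier look at these intensities showed Usf1 higher in the Dex group on 1 of its 2 probe sets, and the other 4 were set beside it. Its values in Dex are therefore given as a description with no test, and so are the values of all 5 genes in Dex against Veh.

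USF1 and USF2 are basic helix-loop-helix leucine zipper proteins that pair with themselves or each other and bind the E-box letters CACGTG, which lie in promoters of lipogenic and glycolytic enzymes of the liver. C/EBP alpha, the product of Cebpa, is a basic leucine zipper factor that drives genes of the mature hepatocyte, such as albumin and enzymes of gluconeogenesis and the urea cycle. FOXA2 and FOXA3 are forkhead factors that open chromatin at liver enhancers, and the glucocorticoid receptor shares many of those enhancers in hepatocytes.

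Total RNA from the livers of 27 mice was hybridised to 27 Affymetrix arrays, 1 liver per array, in groups of 9 titled Con, Veh and Dex, names whose meaning no label states. Strain, sex, age, agent, dose and time of treatment are also unstated in the sources read here. All 3 comparisons share arrays, so a low Veh or a low Con mean enters a pair of them at once.

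The number of arrays, not a read depth, limits the precision. A probe set entered the tests when at least 9 of the 27 arrays had it brighter than their own median, and each of the 6 probe sets did so in all 27. The array medians ran from 17.6 to 33.3 intensity units. Liver identity was checked on hepatocyte markers, of which 8 of 8 on the array passed that filter, and their summed intensity ran from 39334 to 69004 in Con, from 41046 to 85307 in Veh and from 45957 to 112172 in Dex. Of the markers of other cells on the array, 3 of 7 for bile duct passed (not Krt19, Krt7, Epcam or Cldn7), 10 of 11 for Kupffer cells and macrophages, 4 of 6 for endothelium, 5 of 6 for stellate cells and fibroblasts, 4 of 5 for exocrine pancreas and 4 of 8 for T and B cells (not Cd3d, Cd3e, Cd3g or Cd8a). The hepatocyte sum holds Alb, Tat and Cps1, which rose in Dex against Con (below). The summed endothelium markers ran from 565.8 to 795.3 in Con, from 801.7 to 1102.5 in Veh and from 632.8 to 1091.6 in Dex. The sums of the other cell types overlapped between the groups. In whole liver, fewer cells of a type and less RNA per cell cannot be told apart. Among the Dex livers, Dex 1, Dex 2 and Dex 3 stood apart in the mean log2 level of 11 glucocorticoid-induced genes relative to the Con mean (2.87 to 3.13, against -0.43 to 1.01 in Dex 4 to Dex 9), so member values are also given without them. The beta-actin 3′/5′ log2 ratio, a sign of RNA degradation or short targets, had a mean of 1.27 (SD 0.32, n = 9) in the Veh livers, 0.89 (SD 0.17, n = 9) in the Dex livers and 0.95 (SD 0.24, n = 9) in the Con livers. Dex differed from Veh by an exact two-sided permutation test (p = 0.00152, adjusted p = 0.0137 over 9 such tests).

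The E-box is what USF proteins read, and the 300 bases around each start (250 before and 50 after, RefSeq, GRCm38.p6) were searched for CACGTG, which reads the same on both strands. The promoter table held 7 windows for 4 of the 5 genes (2 for Usf1, 3 for Foxa2, and 1 each for Cebpa and Foxa3), and CACGTG was in 0 of the 7. It was in 7.15% of all 32851 promoters. The windows below are shown because these are the genes of the lists used further on that changed in Dex against Con and hold CACGTG, with Apoa5 added as the other gene of the USF list that holds it. Capitals mark CACGTG, and each is written 5′ to 3′ on the gene's own strand.
Abca1: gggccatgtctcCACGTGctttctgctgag
Apoa5: tctttgaccctcCACGTGgtgtttgctcag
Max: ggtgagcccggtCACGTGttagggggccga
Mlx: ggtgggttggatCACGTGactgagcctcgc
Nr1i3: aaactgCACGTGaaaaagcttgccatctct

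The Abca1 window is chr4:53160025-53160054 on the minus strand, with CACGTG beginning 147 bases before the start. The Apoa5 window is chr9:46268514-46268543 on the plus strand, 82 or 107 bases before its 2 starts. The Max window is chr12:76962234-76962263 on the minus strand, 3 bases before the start. The Mlx window is chr11:101087238-101087267 on the plus strand, 40 bases before it. The Nr1i3 window is chr1:171213720-171213749 on the plus strand, 244 bases before it. A match describes letters in a window and not a bound site.

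Usf1 was higher in the Dex livers on its brighter probe set. On 93655_at, the main probe set, the intensity in Con ran from 111.5 in Con 2, with a median of 201.3, to 255.4 in Con 8. In Veh it ran from 115.5 in Veh 9, with a median of 167.3, to 207.3 in Veh 1. In Dex it ran from 187.8 in Dex 6, with a median of 290.8, to 453.9 in Dex 4. All but 1 of the 9 Dex livers lay above the highest Con liver and above the highest Veh liver, and Dex 6 lay inside both other groups. The Con livers averaged 7.51 ± 0.38 on the log2 scale, the Veh livers 7.36 ± 0.26 and the Dex livers 8.22 ± 0.35 (SD, n = 9 each). Dex minus Veh was 0.86 ± 0.16 (SE), a 1.82-fold higher mean, and Dex minus Con was 0.71 ± 0.16 (SE), or 1.63-fold. Usf1 ranked 142 of 6784 probe sets by the size of its rise over Veh. In that contrast 0.265% of all tested probe sets passed an adjusted p under 0.05, and 0.0442% of all tested did so upwards. Of the 6 member probe sets 5 were higher, where 46.6% of all tested were, with a median of 0.21 beside -0.03 over all tested. The 5 include both Usf1 probe sets, and Cebpa (0.08) and Foxa3 (0.01) differed little, while Foxa2 was lower (-0.07). Groups without any overlap were found for 0 of the 6 probe sets in each comparison, against 0.413% of all tested in Veh against Con, 0.767% in Dex against Con and 0.0295% in Dex against Veh.

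The Usf1 difference in Dex was also present without the 3 Dex livers that stood apart. Without Dex 1, Dex 2 and Dex 3 it was 0.84 ± 0.19 over Veh and 0.69 ± 0.19 over Con (SE). Leaving out 1 liver at a time moved Dex minus Veh between 0.79 (without Dex 4) and 0.94 (without Dex 6). The beta-actin ratio differed between the same groups, and with that ratio in the model Dex minus Veh was 0.89 ± 0.20 (SE). With the Gapdh ratio in its place it was 1.02 ± 0.19 (SE). All these fits reuse the Dex levels that chose Usf1, so they are a description and no test. The part of RNA quality in the difference was not tested.

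**Figure D1:**
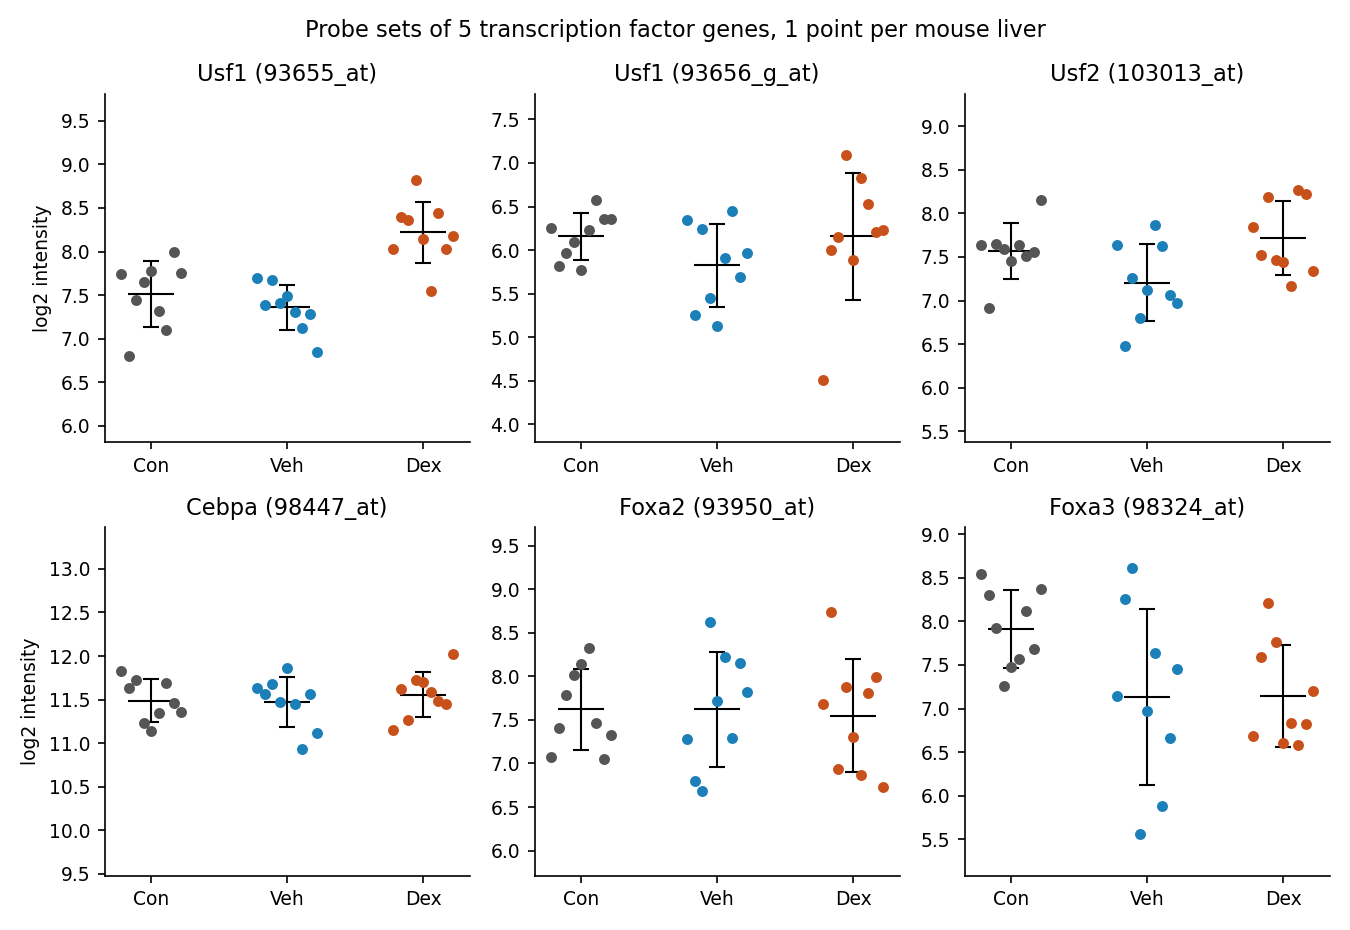
Log2 intensity of the 6 probe sets of Usf1, Usf2, Cebpa, Foxa2 and Foxa3 in Con, Veh and Dex. Points are livers, bars are means ± SD (n = 9 each), and every panel's axis spans 4 log2 units. On Usf1 93655_at the Dex mean is 8.22 against 7.51 in Con and 7.36 in Veh, and Foxa3 spreads widest in Veh (SD 1.01).

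The dimmer Usf1 probe set did not show the same picture. Both were designed on the same sequence record. On 93656_g_at the intensity ran from 54.8 to 95.4 in Con (median 75.1), from 34.9 to 87.6 in Veh (median 60.2) and from 22.7 in Dex 1 to 136.1 in Dex 4 (median 73.7). The Dex livers spanned both other groups, with 1 below the lowest Con liver and 2 above the highest. Dex minus Veh was 0.33 ± 0.24 (SE), and Dex minus Con was 0.00 ± 0.24 (SE). Dex 1 weighed on both values: without it they were 0.54 and 0.21, and without Dex 1, Dex 2 and Dex 3 they were 0.64 ± 0.22 and 0.30 ± 0.22 (SE). Without Dex 4 they were 0.22 and -0.12. Under quantile normalization Dex minus Con was 0.23 ± 0.22 (SE). For Dex minus Veh without Veh 2, Veh 4, Veh 5 and Veh 7, which an earlier look at these data showed standing apart, the value was 0.13 ± 0.28 (SE).

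Across the 27 livers the 2 Usf1 probe sets had a Pearson r of 0.23 and a Spearman rho of 0.23, given as a description because the pooled value holds the Dex levels that chose Usf1. Without the 2 livers farthest from the median r was 0.04. Among the Con livers r was 0.16, among the Veh livers -0.04 and among the Dex livers 0.24 (n = 9 each, exact permutation p from 0.504 to 0.924). Only Dex 4 was the highest of its group on both.

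**Figure D2:**
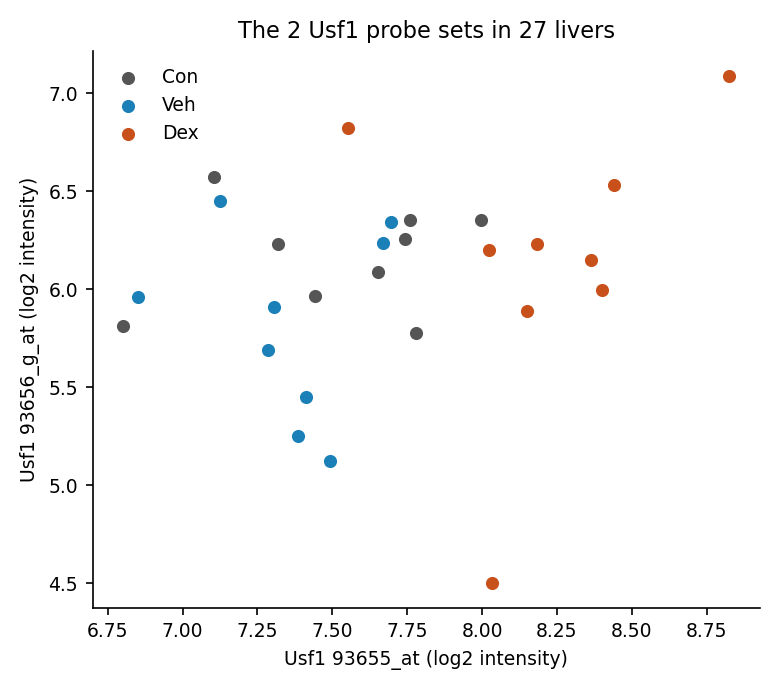
The log2 intensity of Usf1 93656_g_at against that of 93655_at, 1 point per liver, with Con, Veh and Dex set apart by colour. The Dex points lie to the right on 93655_at, while on 93656_g_at they span the range of both other groups (r = 0.23 over 27 livers).

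In Veh against Con, a comparison the choice of Usf1 did not use, 0 of the 6 probe sets passed limma's test at an adjusted p under 0.05, where 3.86% of all tested probe sets did. At an unadjusted p under 0.05 there was 1, Foxa3, where 23.6% of all tested probe sets were. Usf1 93655_at had Veh minus Con of -0.15 ± 0.16 (SE; adjusted p = 0.581, 95% interval -0.48 to 0.18). Usf1 93656_g_at had -0.33 ± 0.24 (SE; adjusted p = 0.409), and 4 of the 9 Veh livers lay below the lowest Con liver. Under quantile normalization the 2 Usf1 values were -0.03 ± 0.17 and -0.06 ± 0.22 (SE). The median of all tested probe sets was itself -0.19 in this comparison and -0.20 in Dex against Con, and quantile normalization brought these to -0.02 and -0.04.

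Usf2, which encodes the partner of USF1, had its lowest mean in Veh. Its intensity ran from 120.8 to 285.1 in Con (median 192.7), from 89.5 in Veh 2 to 233.8 in Veh 6 (median 138.8) and from 143.9 in Dex 6 to 307.9 in Dex 7 (median 183.4). All 9 Dex livers lay above the Veh median, and 3 lay above the highest Veh liver, so the groups overlapped. Dex minus Veh was 0.51 ± 0.19 (SE), 1.43-fold, given as a description. A fit that also held the beta-actin ratio gave 0.36 ± 0.22 (SE). Without Veh 2, Veh 4, Veh 5 and Veh 7 it was 0.36 ± 0.21 (SE). Veh minus Con was -0.36 ± 0.19 (SE; limma adjusted p = 0.233, 95% interval -0.74 to 0.02), and Dex minus Con was 0.15 ± 0.19 (SE; adjusted p = 0.616, 95% interval -0.23 to 0.53). Neither passed. The part of the 3′/5′ ratio in these values was not tested beyond the covariate.

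Pooled over the 27 livers, Usf1 93655_at and Usf2 had a Pearson r of 0.49 and a Spearman rho of 0.42. This is a description with no test, since both were higher in Dex than in Veh and the pooled value holds the Dex levels that chose Usf1. Among the Con livers r was 0.62, among the Veh livers 0.11 and among the Dex livers 0.24 (n = 9 each; exact permutation p = 0.081, 0.775 and 0.543), and in Con it was -0.00 without the 2 farthest livers, so it rested on those 2. With the beta-actin ratio Usf1 93655_at had a pooled r of -0.30 and rho of -0.39, again as a description. Within the groups its sign was not shared, at r = -0.16 for Con, 0.38 for Veh and -0.02 for Dex (n = 9 each; exact permutation p = 0.684, 0.314 and 0.962). Of the 24 Usf1 relations within a group, 0 passed after adjustment, and 1 had an unadjusted permutation p under 0.05 by Pearson's r and 1 by Spearman's rho.

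Cebpa, which encodes C/EBP alpha, had similar means in the 3 groups. Its intensity ran from 2250 to 3649 in Con (median 2813), from 1955 in Veh 7 to 3738 in Veh 5 (median 3038) and from 2276 in Dex 1 to 4174 in Dex 9 (median 3087). The 3 ranges overlapped over most of their length. The Con livers averaged 11.49 ± 0.24 on the log2 scale, the Veh livers 11.48 ± 0.29 and the Dex livers 11.56 ± 0.26 (SD, n = 9 each). Veh minus Con was -0.01 ± 0.13 (SE; limma adjusted p = 0.967), with a 95% interval from -0.28 to 0.26. Dex minus Con was 0.07 ± 0.13 (SE; adjusted p = 0.755), with a 95% interval from -0.20 to 0.34. Under quantile normalization these were -0.24 and -0.23, so the sign of the Dex value turned, as it did without Con 4, Con 5 and Con 6 (-0.06), and none of these passed. Within Veh, Cebpa and Usf1 93655_at correlated (r = 0.78, rho = 0.83, n = 9, exact permutation p = 0.0136 for r). This did not pass after adjustment over 32 Usf1 relations, the pooled ones among them (adjusted p = 0.218). In Con r was -0.38 and in Dex 0.13.

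Foxa2, which opens liver enhancers and is also expressed in bile duct and pancreas, showed no difference between groups that passed. Its intensity ran from 132.4 to 319.7 in Con (median 176.2), from 103.2 in Veh 3 to 394 in Veh 4 (median 209.5) and from 106.3 in Dex 9 to 426.4 in Dex 2 (median 206.1). Each group's range covered most of the others. Veh minus Con was 0.00 ± 0.26 (SE; limma adjusted p = 0.9998, 95% interval -0.54 to 0.54), and Dex minus Con was -0.07 ± 0.26 (SE; adjusted p = 0.881, 95% interval -0.61 to 0.47). Intervals this wide do not show that the groups were alike.

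Foxa3, a forkhead factor of the liver and other gut-derived tissues, had lower means in both Veh and Dex than in Con. Its intensity ran from 153.1 in Con 4 to 373.5 in Con 1 (median 242.9). In Veh it ran from 47.1 in Veh 4 to 390.1 in Veh 3 (median 141.5), and in Dex from 95.6 in Dex 7 to 296.6 in Dex 3 (median 114.4). Of the 9 Veh livers 5 lay below the lowest Con liver and Veh 3 lay above the highest. Of the 9 Dex livers 6 lay below the lowest Con liver. Dex minus Con was -0.77 ± 0.31 (SE), with a limma adjusted p of 0.0851 and a 95% interval of -1.41 to -0.14, and Veh minus Con was -0.79 ± 0.31 (SE), with an adjusted p of 0.128 and a 95% interval of -1.42 to -0.15. Of the 4 member probe sets tested in Dex against Con, 0 passed, where 16.4% of all tested probe sets did, and at an unadjusted p under 0.05 there was 1, Foxa3, where 31.5% of all tested were.

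Whether Foxa3 passed turned on the setting. Dex minus Con passed without Dex 3 (-0.91, adjusted p = 0.0429) and when only the 2 groups were fitted (adjusted p = 0.0285), and over the alternatives run its adjusted p lay between 0.0285 and 0.195. Without Veh 2, Veh 4, Veh 5 and Veh 7 it passed too (adjusted p = 0.0330). In that setting Veh minus Con was -0.41 (adjusted p = 0.692). Dex minus Veh was 0.01 ± 0.31 (SE), but 0.58 ± 0.32 with the Gapdh ratio as a covariate and -0.36 ± 0.29 without those 4 Veh livers.

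**Figure D3:**
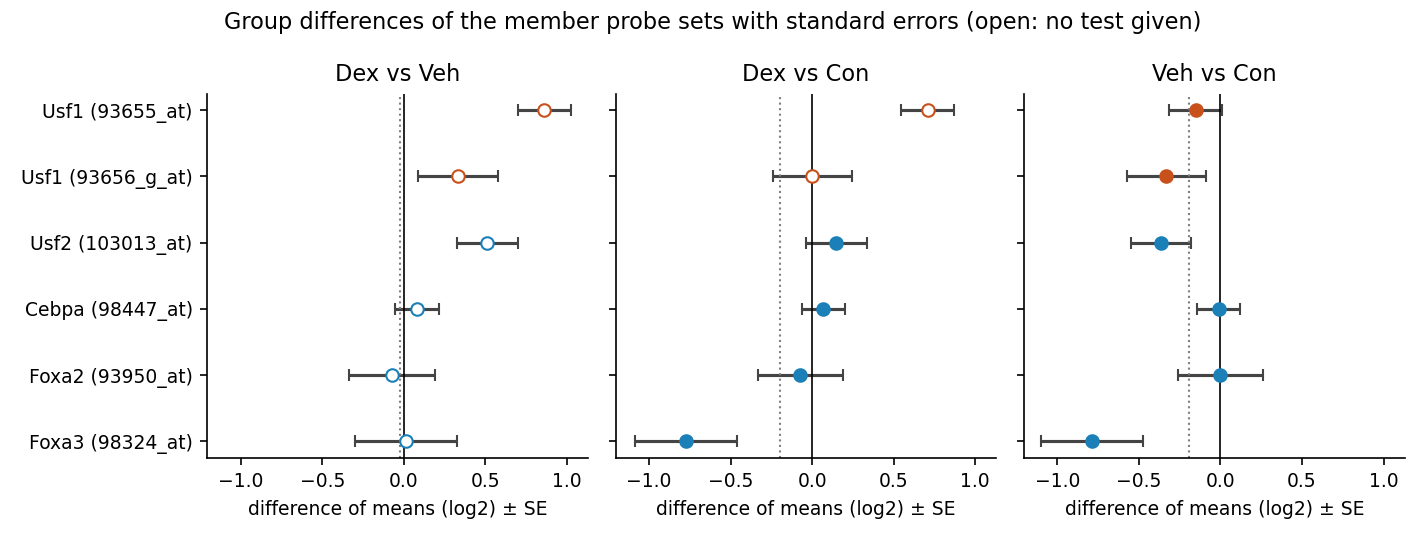
Differences of mean log2 intensity for the 6 probe sets in Dex against Veh, Dex against Con and Veh against Con, as points with standard errors (orange for Usf1, open where no test is given). The dotted line is the median of all tested probe sets (-0.03, -0.20 and -0.19 in that order). Usf1 93655_at lies farthest right in Dex against Veh (0.86). Foxa3 lies left in Dex against Con (-0.77) and in Veh against Con (-0.79).

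The genes whose levels over all livers were most like those of Usf1 93655_at were taken by Pearson's r over the 27 arrays among 5199 other genes. They were Slc30a3 (r = 0.76), Hcn2 (0.76), Ppp3r1 (0.72), Rhoc (0.70) and Tmem259 (0.68), where the 95th percentile over all genes was 0.43. Relative to each group's own mean, the highest were Slc30a3 (0.69), C5ar1 (0.63), Hint1 (0.61), Akr7a5 (0.61) and Smdt1 (0.60), with a 95th percentile of 0.33. Slc30a3 led both orders. The pooled order is a description, since it holds the Dex levels that chose Usf1. Within groups Hcn2, Ppp3r1, Rhoc and Tmem259 ranked 8, 19, 22 and 39. All points share the arrays' scaling, and the highest of so many correlations is high by selection.

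Other liver-enriched transcription factors were followed in a list of 30 genes, of which 23 were tested. In Veh against Con 0 rose and 4 fell, where 1.19% of all tested probe sets rose and 2.67% fell, with a list median of -0.33 beside -0.19 over all tested. Hnf4a, a nuclear receptor that holds up the hepatocyte program, had a median intensity of 283.2 over the Con livers, 127.7 over the Veh livers and 227 over the Dex livers, and 6 of the 9 Veh livers lay below the lowest Con liver. It fell by 1.16 ± 0.29 in Veh (SE; limma adjusted p = 0.0281). Foxa1, the third FOXA gene, fell by 1.29 ± 0.32 in Veh (SE; adjusted p = 0.0281). Nr1h4, which encodes the bile acid receptor FXR, and Nr1i2, which encodes the xenobiotic receptor PXR, fell too, by 0.88 ± 0.23 and 0.86 ± 0.23 (SE; adjusted p = 0.0326 and 0.0353). All 4 calls were lost under quantile normalization, with either 3′/5′ ratio as a covariate, and without Veh 2, Veh 4, Veh 5 and Veh 7, where the adjusted p was 0.549 for Foxa1 and 0.370 for Hnf4a. With 1 liver left out, Foxa1 and Hnf4a each kept the call in 23 of 27 fits (lost without Con 3, Veh 2 or Veh 5, and also without Con 6 for Foxa1 and without Con 8 for Hnf4a), Nr1h4 in 20 and Nr1i2 in 17, the last 2 with the highest adjusted p without Veh 2 (0.0764 and 0.0785).

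In Dex against Con 1 gene of that list rose and 4 fell, where 3.26% of all tested probe sets rose and 13.2% fell. Nr1i3, which encodes the xenobiotic receptor CAR, rose by 0.73 ± 0.21 (SE; adjusted p = 0.0171) on its main probe set and by 0.55 (adjusted p = 0.0276) on the second, while the other was at -0.15 (adjusted p = 0.605). Nr1h4, Hhex, Foxa1 and Nr2f2 fell by 0.82, 0.70, 0.95 and 0.87 (limma adjusted p = 0.0164, 0.0259, 0.0427 and 0.0450). Leaving out 1 liver at a time kept the Nr1h4 and Nr1i3 calls in 27 of 27 fits, Hhex in 23 (lost without Con 3, Dex 1, Dex 2 or Dex 4), Foxa1 in 16 and Nr2f2 in 13, the last 2 with the highest adjusted p without Dex 2 (0.0953 and 0.105). Without Con 4, Con 5 and Con 6 all 5 calls were lost (adjusted p = 0.105 for Nr1i3). Without Dex 1, Dex 2 and Dex 3 all but the Nr1i3 call were lost, and under quantile normalization those of Foxa1, Hhex and Nr2f2 were. In Dex against Veh 0 of 23 passed, where 0.221% of all tested fell, and 4 did at an unadjusted p under 0.05, as did 15.2% of all tested. Hnf4a had the smallest p there, at 1.22 ± 0.29 (SE; adjusted p = 0.0597).

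**Figure D4:**
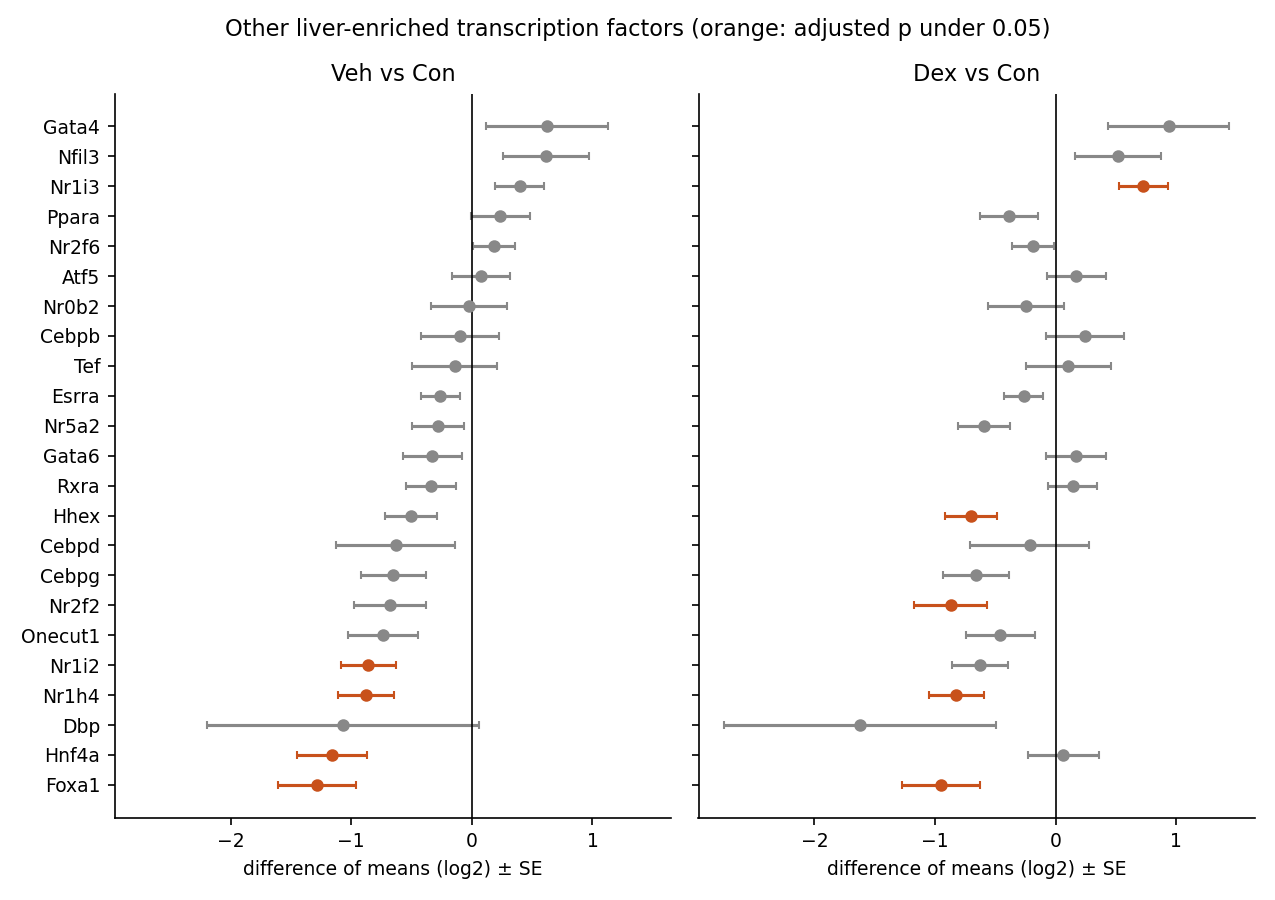
Differences of mean log2 intensity with standard errors for the tested genes of the liver-enriched list in Veh against Con and Dex against Con. Orange marks a limma adjusted p under 0.05. In Veh against Con the orange genes are Foxa1, Hnf4a, Nr1h4 and Nr1i2, all to the left (-1.29 to -0.86). In Dex against Con they are Foxa1, Nr2f2, Nr1h4 and Hhex to the left (-0.95 to -0.70) and Nr1i3 to the right (0.73).

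Among the other E-box binding factors, 8 of 21 list genes were tested. In Dex against Con 1 of the 8 rose and 1 fell, where 3.26% of all tested probe sets rose and 13.2% fell. Max, the partner of MYC and MXD proteins, had medians of 51.9 in Con, 30.1 in Veh and 28.7 in Dex. It fell by 0.97 ± 0.28 in Dex against Con (SE; limma adjusted p = 0.0180), a call kept in 27 of 27 fits with 1 liver left out. Mlx, the partner of the ChREBP factor, rose by 0.37 ± 0.13 (SE; adjusted p = 0.0480), but kept its call in only 10 of 27 such fits (highest adjusted p 0.103, without Dex 2). Without Dex 1, Dex 2 and Dex 3 together Max did not pass either (adjusted p = 0.0745). No gene of this list passed in Veh against Con or Dex against Veh, where 3 and 1 of the 8 did at an unadjusted p under 0.05 (23.6% and 15.2% of all tested probe sets).

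Genes with USF sites described in their promoters had 10 of 15 members on the array, all tested. The promoter table held 11 of the 15, and Abca1 and Apoa5 of them had CACGTG (18.2% of the 11 genes, against 8.09% of all genes and 12.4% of genes with a tested probe set, and no more than the 18.2% to 33.3% of the other lists). Abca1, the cholesterol efflux pump, ran from 176.3 to 357.8 in Con, from 94.2 to 290.9 in Veh and from 51 to 170.5 in Dex, so all 9 Dex livers lay below the lowest Con liver. Groups without overlap were seen for 0.767% of all tested probe sets in Dex against Con. In that comparison 0 of the 10 list genes rose and 1 fell, where 3.26% of all tested probe sets rose and 13.2% fell. The 1 was Abca1, which fell by 1.17 ± 0.23 (SE; limma adjusted p = 0.00165), a call kept in every alternative run. Its second probe set was at -0.46 (adjusted p = 0.212). Apoa5 differed by -0.07 ± 0.15 (SE; adjusted p = 0.783). Fasn, the fatty acid synthase and a classic USF target, had medians of 712.6 in Con, 1491 in Veh and 1059 in Dex, with Veh minus Con of 1.20 ± 0.39 (SE; adjusted p = 0.0723). Hamp, which encodes the iron hormone hepcidin, was at 0.55 ± 0.20 in Dex minus Con (SE; adjusted p = 0.0518). In Dex against Veh 3 of the 10 were higher and 7 lower, where 53.4% of all tested were lower, and the list median was -0.22 beside -0.03 over all tested. None passed limma's test there, and 1 had an unadjusted p under 0.05, as did 15.2% of all tested.

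Hepatocyte genes bound by C/EBP or FOXA factors had 12 of 15 tested. In Dex against Con 5 rose and 1 fell, where 3.26% of all tested probe sets rose and 13.2% fell. The 1 was Otc, which fell by 0.40 ± 0.14 (SE; limma adjusted p = 0.0429). Cps1, the entry enzyme of the urea cycle, rose by 0.75 ± 0.18 (SE; adjusted p = 0.00606), and Tat, a tyrosine-degrading enzyme induced by glucocorticoids, rose by 1.18 ± 0.28 (SE; adjusted p = 0.00705). Albumin (Alb), Tdo2 and Igfbp1 rose by 0.61, 0.70 and 2.39 (limma adjusted p = 0.0276, 0.0371 and 0.0469), and kept their calls in 20, 19 and 12 of 27 fits with 1 liver left out. Otc kept its call in 16 such fits. The Igfbp1 mean in Con was 3.85 on the log2 scale, near the dim end of the arrays. Half-way values for Igfbp1 put the Dex group (median 30.7) above Con (20.4) but below Veh (51.6). Only 3 of the 9 Dex livers exceeded the highest Con liver, the brightest at 4127.5, while 5 Veh livers did. The Igfbp1 call held in 3 of 13 other alternatives. Tat, Tdo2 and Igfbp1 are among the genes by which Dex 1, Dex 2 and Dex 3 stood apart. Without those 3 livers the calls of the other 3 genes, Cps1, Alb and Otc, were lost (adjusted p = 0.0676 for Cps1). Under quantile normalization the Cps1, Tat, Alb and Tdo2 calls were lost. No gene passed in Veh against Con or in Dex against Veh, where 2 and 4 did at an unadjusted p under 0.05 (23.6% and 15.2% of all tested probe sets), and Cebpa, Foxa2 and Foxa3 themselves did not pass in Dex against Con. Of the 11 tested glucocorticoid-induced genes, 4 rose in Dex against Con, where 3.26% of all tested probe sets did. The 4 were Tat, Tdo2 and Igfbp1 of the same list and Ddit4 (1.63 ± 0.56, SE; limma adjusted p = 0.0426). Ddit4 was above the array median in 2 Con, 3 Veh and 8 Dex livers, so it met the filter only through Dex and its p is no test. Its call was kept in 19 of 27 fits with 1 liver left out and in 5 of 13 other alternatives, and was lost with no filter. Ddit4, too, is among the genes by which Dex 1, Dex 2 and Dex 3 stood apart.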

How the data were processed

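Values were linear intensities, 1 per probe set and array, as the authors deposited them. Per the labels, RNA came from Trizol and RNeasy extraction, with a Bioanalyzer check and Affymetrix target synthesis. The summarising software and its scaling are not stated in the sources read here. The trimmed mean of every array was close to 100.1, so the arrays already shared a scale, and none was added. Intensities were floored at the 10th percentile of positive values (2.6) before the log2 step.

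Of 12488 probe sets, 66 controls were left out. The platform annotation gave 10855 probe sets 1 symbol, 396 several and 1237 none, and no gene was named from the last 2 kinds. A probe set above its array's median in at least 9 of 27 arrays was tested, which left 6784 for 5200 genes. A gene's main probe set was the tested one with the highest mean log2 intensity. A group-means model of the 27 arrays was fitted (limma 3.58.1, R 4.3.3, eBayes with a mean trend), with Benjamini-Hochberg adjustment over all 6784 and a threshold of 0.05. Correlations used permutations (exact for 9 livers, 100000 otherwise) in scipy 1.17.1. The code was tested on simulated data.

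Members and lists were chosen with earlier results of these data known. Named genes were all member probe sets and every list gene called in any comparison. Of the list genes among the 3 smallest p of a list in a comparison, only some are named. Apoa5 is named for its CACGTG. The 5 genes most like Usf1 over all arrays and the 5 within groups are named too. Each array is a single mouse liver, per the labels, and the 9 of a group were taken as replicates. Alternatives were quantile normalization, other floors and filters, a replicate block, 3′/5′ covariates, array weights, no mean trend, fits of 2 groups, and arrays left out. Correlations between other members and with array measures were added after values were seen.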

Additional observations from a re-analysis of the deposited data

Results flagged for a closer look

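The Usf1 probe set 93656_g_at in Dex had 1 liver far from the others. Dex 1 was at an intensity of 22.7, and the next lowest Dex liver was at 59.3. The gap filled 0.536 of the group's log2 range, above Dixon's critical value of 0.493 for 9 samples. Among 18 groups of member values 1 stood out in this way, where chance gives about 1 in 20. On Usf1 93655_at Dex 1 was at 262, inside the range of the other Dex livers.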

How the results depend on the processing

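Usf1 93655_at was higher in Dex than in Veh under every alternative run (0.79 to 1.02), a description, since these Dex levels chose Usf1. Members that passed in Dex against Con went from 0 to 1 (Foxa3) with the replicate block (adjusted p = 0.0496), without Veh 2, Veh 4, Veh 5 and Veh 7, and when only the 2 groups were fitted, and lay between 0 and 1 with 1 liver left out. In Veh against Con they went from 0 to 1 (Foxa3) with the Gapdh ratio as a covariate (-1.10, adjusted p = 0.0493) and with array weights (-0.87, adjusted p = 0.0314), and stayed at 0 with 1 liver left out. Members higher in Dex than Veh were 5, and 4 to 6 with 1 liver left out. The replicate block changed no other member call. Livers that share a title number had low correlations of their deviations (27 pairs, from -0.20 to 0.19, median 0.01). The labels do not say what the numbers mean, and low correlations cannot exclude a pairing. List genes passing in any comparison were 17, against 8 with quantile normalization, 9 with no filter, 9 without Dex 1, Dex 2 and Dex 3, 11 without Veh 2, Veh 4, Veh 5 and Veh 7, 10 without Con 4, Con 5 and Con 6, and 8 to 21 with 1 liver left out. The Usf1 relations past the threshold went from 0 to 1 under quantile normalization (Usf2 pooled over all livers, r = 0.58), but that pooled value holds the Dex levels that chose Usf1 and is no test. Within Con, Veh and Dex r was then 0.57, 0.25 and 0.40, and none passed.

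Probe sets called in Veh against Con were 262, against 85 with quantile normalization, 116 with no filter, 453 without Dex 1 to 3, 3 without the 4 Veh livers, 158 without Con 4 to 6, 33 and 75 with the beta-actin and Gapdh ratios, 656 with 2 groups, 1158 with array weights, and 85 to 586 with 1 liver left out. In Dex against Con they were 1115, against 659 with quantile normalization, 405 without Dex 1 to 3 and 628 without Con 4 to 6, and 785 to 1488 with 1 liver left out. In Dex against Veh they were 18, and 4 to 124 with 1 liver left out. They were 1 without Dex 1 to 3, without the 4 Veh livers, with the beta-actin ratio and with 2 groups, 3 with the replicate block, 4 with array weights, 5 with no mean trend, and 7 with no filter or without Con 4 to 6. The share that were higher among those called moved from 30.9% to 52.9% in Veh against Con, from 19.8% to 29.3% in Dex against Con and from 16.7% to 26.7% in Dex against Veh under quantile normalization. Causes were not tested. Foxa2 and Foxa3 have SDs of 0.45 to 1.01, and 9 livers a group limit what can be seen there.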

Other observations

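Relations between the other members were computed in 24 further tests, and none passed after adjustment, while 2 did at an unadjusted p under 0.05. Cebpa and Foxa3 correlated in Con (r = 0.74, rho = 0.75, n = 9, exact permutation p = 0.0291, adjusted p = 0.322), with r = 0.57 without the 2 farthest livers. Foxa2 and Foxa3 were inversely related in Con (r = -0.71, rho = -0.68, n = 9, exact permutation p = 0.0369 for r, adjusted p = 0.322), with r = -0.61 without the 2 farthest livers. For that pair r was -0.64 in Veh and 0.01 in Dex. The other members were also set against the array measures in 60 tests, of which none passed after adjustment and 8 had an unadjusted p under 0.05. Pooled over 27 livers, Usf2 had r of -0.46 with the beta-actin ratio, -0.395 with the Gapdh ratio and 0.45 with the array median. With the array median Usf1 93656_g_at had r of 0.45 pooled and 0.73 in Con. With the Gapdh ratio Foxa3 had r of 0.39 pooled and 0.69 in Veh. Foxa2 had r of -0.72 with the beta-actin ratio in Veh. Pooled values also hold differences between groups.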
